A study of Mus musculus with 69 samples.

Results

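This account sets the 16 RNA libraries labelled for early life stress with GFP or for Dot1l overexpression against the 16 labelled for standard rearing with GFP or for Dot1l knockdown under stress. The members were taken from the labels and are 32 of the 69 samples of the series; no measured value chose them. All 32 libraries come from nucleus accumbens tissue of male mice. The stress-like side joins 8 ELS GFP libraries (early life stress, genotype label GFP) and 8 Standard Dot1l overexpression libraries (standard rearing, genotype label Dot1l overexpression). The control-like side joins 8 Standard GFP libraries (standard rearing, GFP) and 8 ELS Dot1l knockdown libraries (early life stress, Dot1l knockdown). Group names stand for the labels throughout. The labels give no age, no vector, no promoter and no targeted cell type; the series' design text speaks of D2-type medium spiny neurons, while RNA came from whole tissue. Nothing in the labels says whether each library came from its own animal, so p-values measure the spread between these libraries, part of which may be technical.

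DOT1L is the methyltransferase that places methyl groups on lysine 79 of histone H3, and H3K79me2, the dimethyl form, lies over the bodies of transcribed genes. The nucleus accumbens is the ventral part of the striatum, and most of its neurons are medium spiny neurons that carry either dopamine receptor D1 or D2. The comparison asks for a transcript that moves when stress is applied or Dot1l is raised and that returns when Dot1l is lowered under stress. Each rearing stands once on each side, and so does each kind of vector label, GFP or Dot1l. The contrast is therefore the average of 2 components that share no library: overexpression minus GFP in Standard animals, and GFP minus knockdown in ELS animals.

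Totals ran from 0.314 to 9.8 M counts on the control-like side (median 5 M) and from 1.76 to 11.1 M on the stress-like side (median 6.15 M, where M is mega). The 4 libraries under 1 M counts are all control-like: Standard GFP replicates 1, 4 and 5 and ELS Dot1l knockdown replicate 7. The 10 most abundant features took 36.1% to 58.8% of the counts on the control-like side and 43.2% to 59.5% on the stress-like side. In 4 libraries, over 2% of the genes tested drew over 50% of their group's summed level from that library alone: Standard GFP replicates 5 and 6, Standard Dot1l overexpression replicate 1 and ELS GFP replicate 2. Values without these 4 libraries are given where they matter, as a check chosen after the data were seen. All 4 carry the number 2 in their library titles. So do Standard GFP replicate 4 and ELS Dot1l knockdown replicate 7, both under 1 M counts. More control-like than stress-like libraries carry this number, and the labels do not say what it stands for.

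Dot1l itself did not separate the sides. Its level in CPM (counts relative to the size of the library, scaled between libraries) ran from 10.6 to 48.5 in Standard GFP (median 36.3) and from 25.2 to 75 in Standard Dot1l overexpression (median 37.7). In ELS GFP it ran from 15.4 to 54.2 CPM (median 35) and in ELS Dot1l knockdown from 28.9 to 74.9 CPM (median 38.4). The 4 groups overlapped over most of their range, and the median of the knockdown group was the highest of the 4. The log2 difference of Dot1l was 0.02 (SE of 0.19, adjusted p = 0.9844) between the sides, 0.33 for overexpression minus GFP in Standard (p = 0.2318) and -0.28 for GFP minus knockdown in ELS (p = 0.3012). The level of the targeted gene thus gives no check of the knockdown label: it was not lower there. Kdm2b, a histone demethylase, had medians of 17.2 CPM in Standard GFP, 24.3 CPM in ELS Dot1l knockdown, 24.5 CPM in ELS GFP and 23.3 CPM in Standard Dot1l overexpression, with 1 Standard GFP library at 81.3 CPM and a log2 difference of -0.11 (SE 0.21) between the sides. Among the 18 tested members of the list of DOT1L and its partners, 11 had a log2 below 0, none passed the adjusted threshold and the median was -0.08. Kmt2a, the methyltransferase whose fusions recruit DOT1L in leukemia, had the smallest p of the list (log2 difference -0.26, p = 0.02445), with -0.53 in the Standard component, 0.00 in the ELS component, and -0.17 between the sides without Standard GFP replicate 6.

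No gene passed the threshold. Of 14016 genes tested with edgeR's quasi-likelihood test, 0 (0%) had an adjusted p under 0.05 between the sides, and the smallest adjusted p was 0.368. At an unadjusted p under 0.05 there were 1188 genes (8.48%), of which 623 (4.44%) were higher and 565 (4.03%) lower on the stress-like side. The 4 groups allow 2 further contrasts that are orthogonal to this one. The difference between the 2 components, which also sets both Dot1l vectors against both GFP groups, had 1170 genes (8.35%) at an unadjusted p under 0.05, 501 (3.57%) above and 669 (4.77%) below 0. The rearing contrast, ELS minus Standard, had 1333 (9.51%), 392 (2.8%) higher and 941 (6.71%) lower under ELS. Each of these had 0 genes past the adjusted threshold, with smallest adjusted p of 0.49 and 0.336. The order of the 3 counts depended on the setting: the stress-like count was the largest with no filter on low counts (4341 against 3214 and 2892) and the smallest without the 4 dominating libraries (737 against 754 and 748). The median SE of a log2 difference was 0.287, and 0 genes had 16 stress-like libraries that did not overlap the 16 control-like ones.

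**Figure D1:**
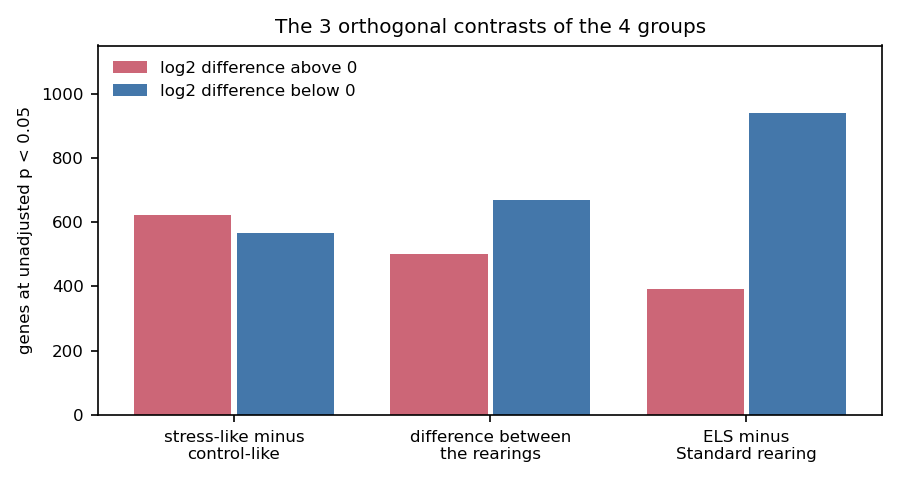
Number of genes at an unadjusted p under 0.05 (vertical axis) in the 3 orthogonal contrasts of the 4 groups, split by the sign of the log2 difference. The stress-like contrast has 623 above and 565 below 0, the difference between the rearings 501 and 669, and the rearing contrast 392 and 941.

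The components gave little common ground. In the Standard component, 1524 genes (10.9%) had an unadjusted p under 0.05, 644 (4.59%) above and 880 (6.28%) below 0. In the ELS component there were 866 (6.18%), 554 (3.95%) above and 312 (2.23%) below 0, with 0 past the adjusted threshold in each and smallest adjusted p of 0.137 and 0.277. At the unadjusted level in both were 43 genes (0.307%), 23 with the same direction (0.164%) and 20 with opposite directions (0.143%). Over all genes tested, 49.8% had the same sign in both components. Differences in mean log2 CPM of the 2 components had a Pearson correlation of 0.0676 and a Spearman correlation of 0.0529 across 14016 genes, which are not independent replicates. Split the other way, into ELS GFP minus Standard GFP and overexpression minus knockdown, which again share no library, the values were 0.0846 and 0.0631. Of the 23 genes with the same direction, 18 (0.128% of all genes) were higher and 5 (0.0357%) lower on the stress-like side. Among the 20 with opposite directions were Neu4, a sialidase (-3.70 in Standard and 2.43 in ELS), and Klf6, a zinc finger transcription factor (0.76 and -0.68), both named after their values were seen. For Neu4, 1 library held 88.9% of its side, so its values rest largely on that library. For Klf6 the largest such share was 16.5%.

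**Figure D2:**
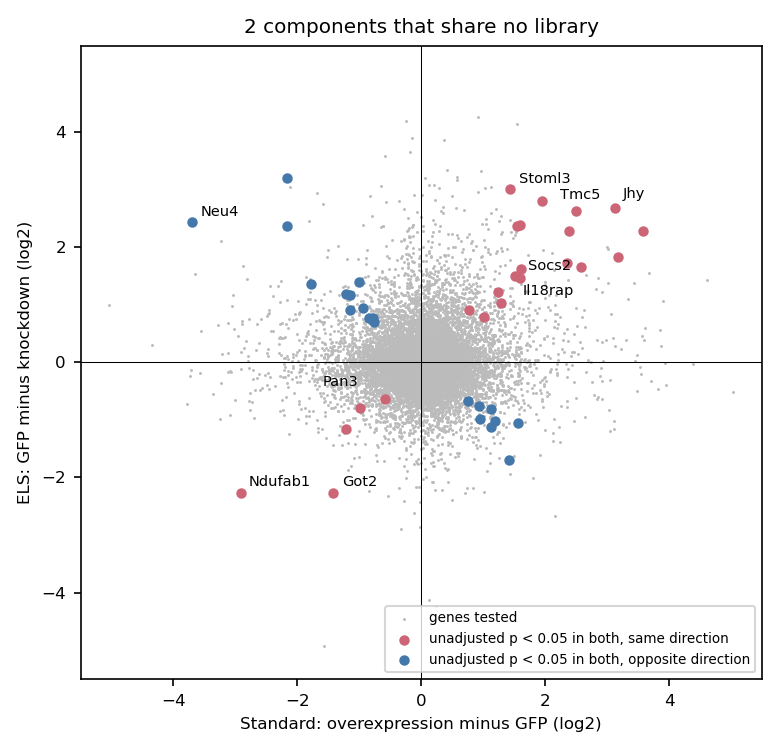
Log2 fold change of each of the 14016 genes tested for overexpression minus GFP in Standard animals (horizontal) against GFP minus knockdown in ELS animals (vertical). Red points are the 23 genes at an unadjusted p under 0.05 in both with the same direction, blue points the 20 with opposite directions; the grey cloud has no visible slope.

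Il18rap, the accessory chain of the interleukin-18 receptor, was the gene with the most even pattern on the higher side. It ran from 0.760 to 2.41 CPM in Standard GFP (median 1.56) and from 0.234 to 3.39 CPM in ELS Dot1l knockdown (median 1.31). In ELS GFP it ran from 1.45 to 10.2 CPM (median 3.28) and in Standard Dot1l overexpression from 1.51 to 9.87 CPM (median 3.22). All 16 stress-like libraries lay above the median of the control-like side, although the ranges overlapped. The log2 difference was 1.50 (SE 0.36, p = 0.0001896, adjusted p = 0.3684), with 1.51 in the Standard component and 1.49 in the ELS component. It was 1.50 without the 4 dominating libraries. The level of Il18rap is low, so a few counts set its value in a shallow library.

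Lrrc69, a leucine-rich repeat gene, had medians of 1.07 CPM in Standard GFP, 1.23 CPM in ELS Dot1l knockdown, 3.54 CPM in ELS GFP and 3.11 CPM in Standard Dot1l overexpression. In 15 of 16 stress-like libraries it was above the control-like median, and its log2 difference was 1.23 (SE of 0.36, adjusted p = 0.4369), with 1.24 and 1.22 in the components. The long noncoding transcript 9530026P05Rik had medians of 19.5, 14.2, 24.4 and 27.8 CPM in the same order of groups, a log2 difference of 0.90 (SE of 0.23, adjusted p = 0.3684) and 15 of 16 stress-like libraries above the control-like median. These transcripts were higher in both stress-like groups without any library holding over 25% of its side.

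Prkar2a, a regulatory subunit of protein kinase A, ran from 8.81 to 19.9 CPM in Standard GFP, from 6.92 to 37.2 CPM in ELS Dot1l knockdown, from 18.6 to 100.7 CPM in ELS GFP and from 13.8 to 65.2 CPM in Standard Dot1l overexpression. One library in each stress-like group stood far above its group. The log2 difference between the sides was 0.84 (SE of 0.24, adjusted p = 0.4369) and 0.45 without the 4 dominating libraries. Zyx, which encodes zyxin of focal adhesions and the actin cytoskeleton, had medians of 7.92 CPM in Standard GFP, 10.2 CPM in ELS Dot1l knockdown, 15.4 CPM in ELS GFP and 13.8 CPM in Standard Dot1l overexpression, and a log2 difference of 0.79 (SE of 0.22, adjusted p = 0.4369). For Zyx the Standard component was 1.02 (p = 0.00309) and the ELS component 0.57 (p = 0.07315). Socs2, a suppressor of cytokine and growth hormone signalling, had a log2 difference of 1.52 (SE of 0.38, adjusted p = 0.3684), with medians of 5.13 CPM in Standard GFP, 6.04 CPM in ELS Dot1l knockdown, 9.07 CPM in ELS GFP and 9.10 CPM in Standard Dot1l overexpression. Socs2 reached 69.1 CPM in 1 ELS GFP library and 99.7 CPM in 1 overexpression library, and its log2 difference was 0.50 without the 4 dominating libraries.

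**Figure D3:**
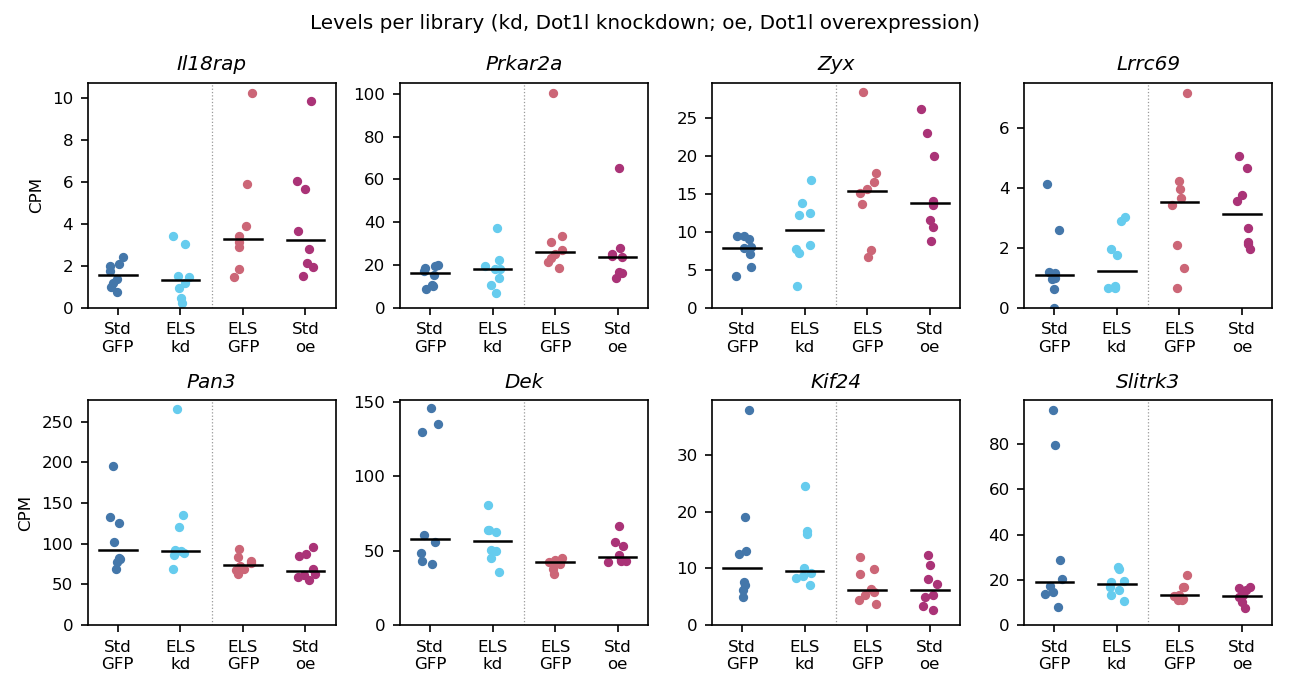
Level in CPM (vertical, linear from 0) of 8 genes in each of the 32 libraries; points are libraries, black bars group medians, and the dotted line parts the control-like groups (left) from the stress-like groups (right). In the upper row the medians of both stress-like groups lie above those of both control-like groups, in the lower row below them, and in every panel the sides overlap.

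Jhy, needed for the motile cilia of ependymal cells, which line the ventricles, had the smallest p of all genes (log2 difference 2.90, SE 0.64, p = 6.332e-05, adjusted p = 0.3684). It ran from 0 to 0.760 CPM in Standard GFP, from 0 to 1.52 CPM in ELS Dot1l knockdown, from 0.183 to 17.6 CPM in ELS GFP and from 0.151 to 9.90 CPM in Standard Dot1l overexpression. It was at 0 in 5 control-like libraries and in 0 stress-like libraries, and 1 ELS GFP library held 33.9% of its side. The libraries at 0 were Standard GFP replicates 1, 3, 4 and 5 and ELS Dot1l knockdown replicate 6. Standard GFP replicates 1, 4 and 5 had under 1 M counts, so a 0 there says little. No stress-like library was that shallow. Stoml3, a stomatin-like membrane protein found in cilia, had a log2 difference of 2.22 (SE of 0.50, adjusted p = 0.3684), with medians of 0.349 CPM in Standard GFP, 0.468 CPM in ELS Dot1l knockdown, 3 CPM in ELS GFP and 1.24 CPM in Standard Dot1l overexpression. Tmem212, an ependymal marker, had 2.08 (SE of 0.67, adjusted p = 0.4434) and Spag17, a protein of the central apparatus of motile cilia named here after its value was seen, 1.61.

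The marker list for ependymal and choroid plexus cells did not move as 1 group. Of its 8 members, 4 were tested, and their summed level ran from 1.21 to 106.1 CPM on the stress-like side (median 6.72) and from 1.17 to 108.3 CPM on the control-like side (median 3.78). Foxj1, the master regulator of motile cilia, had a log2 difference of -0.81 and drew 85.4% of its side from 1 Standard GFP library. Rarres2 had 1.78, and 0.14 without Standard Dot1l overexpression replicate 1, which held 83.2% of its side, with -0.40 in the ELS component. Of the untested members, Ttr had 35 counts in all 32 libraries together, Folr1 3, Ccdc153 56 and Dynlrb2 119. In bulk tissue, a change in the number of cells of a type and a change in RNA per cell cannot be told apart, and the part of ependymal tissue in the values of Jhy and Stoml3 was not tested.

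Musk, the agrin receptor kinase of the neuromuscular junction, had a log2 difference of 2.41 (SE of 0.60, adjusted p = 0.3684) from medians of 0.405 CPM in Standard GFP, 0.400 CPM in ELS Dot1l knockdown, 1.33 CPM in ELS GFP and 3.53 CPM in Standard Dot1l overexpression. Tmc5, of the transmembrane channel-like family, had 2.56 (SE 0.66), and 1 ELS GFP library held 43.1% of its side. The predicted transcripts Gm45587, Gm42707 and Gm553 had log2 differences of 2.51, 2.00 and 2.02. Group medians of these 5 genes lay between 0.0615 and 4.23 CPM, so most of the leading higher genes are transcripts with few counts. The mean count per library had a median of 28.2 among the 623 higher genes, 66 among the 565 lower genes and 53.8 among all genes tested. Several leading higher genes were high in the same libraries: ELS GFP replicates 3 and 6 and Standard Dot1l overexpression replicate 3. There, in that order, Gm42707 was at 7.35, 10.6 and 12.4 CPM and Gm45587 at 6.98, 6.34 and 6.77 CPM. Stoml3 was at 4.78, 12.1 and 6.915 CPM, Il18rap at 5.88, 10.2 and 5.645 CPM, and Lrrc69 at 4.23, 7.16 and 4.66 CPM. Musk did not follow, at 0.919, 0.205 and 7.06 CPM. Whether these genes share a source was not tested.

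Pan3, the regulatory subunit of the PAN2-PAN3 deadenylase that starts mRNA decay, had the most even pattern on the lower side. It ran from 69.2 to 195.2 CPM in Standard GFP (median 92.4) and from 68.8 to 265.9 CPM in ELS Dot1l knockdown (median 91.3). In ELS GFP it ran from 62.6 to 92.9 CPM (median 74.3) and in Standard Dot1l overexpression from 55.7 to 95.5 CPM (median 65.8). Only 2 of 16 stress-like libraries lay above the control-like median, and the lower ends of the groups overlapped. The log2 difference was -0.61 (SE 0.16, p = 0.0005782, adjusted p = 0.4265), with -0.58 in the Standard component and -0.63 in the ELS component. It was -0.52 without the 4 dominating libraries and -0.36 without the 4 libraries under 1 M counts.

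Kif24, a kinesin of the centriole that acts on cilium assembly, had medians of 10.1 CPM in Standard GFP, 9.61 CPM in ELS Dot1l knockdown, 6.18 CPM in ELS GFP and 6.23 CPM in Standard Dot1l overexpression. The log2 difference between the sides was -0.89 (SE of 0.27, adjusted p = 0.4369), with -0.99 and -0.80 in the components and -0.93 without the 4 dominating libraries. In 4 of 16 stress-like libraries it was above the control-like median, and the ranges of all 4 groups overlapped.

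Dek, Slitrk3, Akap9, Dmtn, Pex14 and A330102I10Rik had the more negative value in the Standard component, and no gene's difference between the components passed the adjusted threshold. Dek, a chromatin-binding protein, ran from 40.8 to 145.9 CPM in Standard GFP, from 35.4 to 81 CPM in ELS Dot1l knockdown, from 34.6 to 45 CPM in ELS GFP and from 42.2 to 66.9 CPM in Standard Dot1l overexpression. Standard GFP was the widest group, with overlap between all 4, and the log2 difference was -0.59 (SE of 0.17, adjusted p = 0.4369). Among the libraries under 1 M counts, Dek was at 130.1 and 135.6 CPM in Standard GFP replicates 1 and 5. It was at 55.9 CPM in Standard GFP replicate 4 and 50.1 CPM in ELS Dot1l knockdown replicate 7. Slitrk3, a synaptic adhesion protein of inhibitory synapses, had -0.86 (SE of 0.25, adjusted p = 0.4369), with -1.38 in Standard and -0.33 in ELS, and -0.37 without the 4 dominating libraries. Akap9, a scaffold that anchors kinases at the centrosome and Golgi, had -0.41 (SE 0.12), from -0.58 and -0.25. In Standard GFP replicates 1 and 5 Akap9 reached 341.4 and 225.5 CPM. Dmtn, the actin-bundling protein dematin, had -0.65, from -0.95 and -0.35. It reached 222.2, 182.1 and 116.2 CPM in Standard GFP replicates 1, 4 and 5 and 135.2 CPM in ELS Dot1l knockdown replicate 7. These are the 4 libraries under 1 M counts. Standard GFP replicate 6 was at 177.9 CPM, and the highest stress-like library at 76.1 CPM. The part of depth in these values was not tested. Pex14, of the peroxisomal import machinery, had -0.78, from -1.07 and -0.49, and -0.37 without the 4 dominating libraries. The noncoding transcript A330102I10Rik had -0.98 (SE of 0.27, adjusted p = 0.4369), from -1.24 and -0.73. None of its 16 stress-like libraries (0) was above the control-like median.

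Of the 5 lower genes with the smallest p, all but Pan3 drew between 47.2% and 70.5% of their side from 1 library. Got2, the mitochondrial aspartate aminotransferase, had medians of 19.5 CPM in Standard GFP, 19.0 CPM in ELS Dot1l knockdown, 12.8 CPM in ELS GFP and 17.7 CPM in Standard Dot1l overexpression, but reached 474.1 CPM in ELS Dot1l knockdown replicate 7. Its log2 difference of -1.84 (SE of 0.46, adjusted p = 0.3684) became -0.87 without that library. Ndufab1, an acyl carrier protein of complex I, had -2.59 (SE of 0.67, adjusted p = 0.3684). It drew 55.8% of its side from Standard GFP replicate 6, had -1.14 without it and 0.14 with DESeq2, and had a median of 5.87 CPM on the stress-like side and 5.58 CPM on the control-like side. Tsr3, which modifies ribosomal RNA, had -1.95, with 68.9% of its side in the same library, and -0.72 without it. The zinc finger gene Zfp949 had -1.59, with 70.5% of its side in Standard GFP replicate 1, and -0.37 without that library. Over all genes, 1 library held over 25% of its side in 59.3% of the 1188 genes at an unadjusted p under 0.05, against 27.4% of all genes tested.

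Interferon-stimulated genes lay lower on the stress-like side by sign, with no member past the adjusted threshold, 5 of 29 lower and 1 of 29 higher at an unadjusted p under 0.05 (4.03% and 4.44% of all genes). Type I interferons act through a complex that holds STAT2 and IRF9 and binds the interferon-stimulated response element in the promoters of these antiviral genes. Of 29 members tested, 25 had a log2 difference below 0 (49.6% of all genes tested did, and 50.4% were above 0), with a median of -0.24 against 0.00 over all genes. These members are not independent observations: the list's median level differed between libraries of the same group with an SD of 0.40 log2. In the Standard component 19 of 29 were below 0 (48.5% of all genes) with a median of -0.20, and in the ELS component 26 of 29 (50.2% of all genes) with a median of -0.38. In the Standard component 51.5% of all genes were above 0. In both components 17 of 29 members were below 0, against 24.3% of all genes. This count follows largely from the 19 and 26 of 29 given above, so it is no further sign of agreement between the components. The summed level of the 29 genes ran from 420.8 to 1473 CPM on the stress-like side (median 801.3) and from 637 to 1820 CPM on the control-like side (median 922.7), so the sides overlapped over most of their range. Without the 4 dominating libraries 28 of 29 were below 0 with a median of -0.21. Over 12 alternatives 24 to 28 were below 0. The fewest came with a block by the number in the library title, where the median was -0.16. With 1 library left out, 23 to 27 were below 0.

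The promoters of 4 members with upstream matches to GAAANNGAAA, the core of the interferon response element, are shown. Bst2, Ifit3 and Rsad2 also held upstream matches and are not shown, and not all members held a match in this window. The upstream stretches are from RefSeq on GRCm38.p6, 5′ to 3′ along the strand of the gene, with matches on either strand in capitals.
Stat2, chr10:128270256-128270305, plus strand: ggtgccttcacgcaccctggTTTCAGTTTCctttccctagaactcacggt
Oas1a, chr5:120907526-120907565, minus strand: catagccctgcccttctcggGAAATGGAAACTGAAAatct
Isg15, chr4:156200855-156200916, minus strand: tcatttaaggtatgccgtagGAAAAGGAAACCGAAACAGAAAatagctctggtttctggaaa
Ifit1, chr19:34640765-34640833, plus strand: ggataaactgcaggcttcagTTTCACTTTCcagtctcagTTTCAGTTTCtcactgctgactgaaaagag

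Isg15 holds 3 overlapping matches, Oas1a 2 overlapping ones, Ifit1 2 apart and Stat2 1. In windows from 250 bases before to 50 after the start, 10 of the 19 members with an entry (52.6%) held the motif, against 4.09% of the 10551 tested genes with an entry. The motif was searched after the values were seen, and a match is a description of the letters only.

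Usp18, a protease that removes ISG15 and restrains interferon receptor signalling, had the smallest p of the list. It ran from 3.52 to 25.5 CPM in Standard GFP (median 9.60), from 2.998 to 18.5 CPM in ELS Dot1l knockdown (median 9.17), from 2.38 to 12.3 CPM in ELS GFP (median 6.84) and from 2.87 to 16.9 CPM in Standard Dot1l overexpression (median 4.97). In 3 of 16 stress-like libraries it was above the control-like median, and the log2 difference was -0.81 (SE 0.28, p = 0.007292, adjusted p = 0.4434), with -0.87 and -0.75 in the components. Ifih1, the RNA sensor MDA5, had medians of 39.9 CPM in Standard GFP, 46.5 CPM in ELS Dot1l knockdown, 31.2 CPM in ELS GFP and 33.4 CPM in Standard Dot1l overexpression, and a log2 difference of -0.61 (SE of 0.23, adjusted p = 0.4773), with -0.56 and -0.66, and -0.34 without Standard GFP replicate 6. Stat2 had -0.48 (SE of 0.19, adjusted p = 0.4828), and Dhx58, the sensor LGP2, -0.74 (SE of 0.31, adjusted p = 0.5067). Each of these 4 was below 0 in both components.

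Members with the widest values were those of single libraries. Oas1a, which makes the second messenger of RNase L, had -1.33 (SE of 0.51, adjusted p = 0.4773), reached 263 CPM in Standard GFP replicate 6, and had -0.09 without that library. Isg15, a ubiquitin-like modifier, was the member farthest above 0, at 1.16 (SE of 0.47, adjusted p = 0.4929). It had medians of 5.95 to 8.96 CPM in the 4 groups and 227.3 CPM in ELS GFP replicate 2, and had 0.05 without it. Oas1b, Oas2 and Xaf1 also lay above 0, at 0.16, 0.03 and 0.09. Ifit1 had -0.24 (SE 0.21), Irf9 -0.27 (SE 0.20) and Irf7 -0.28 (SE 0.25).

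**Figure D4:**
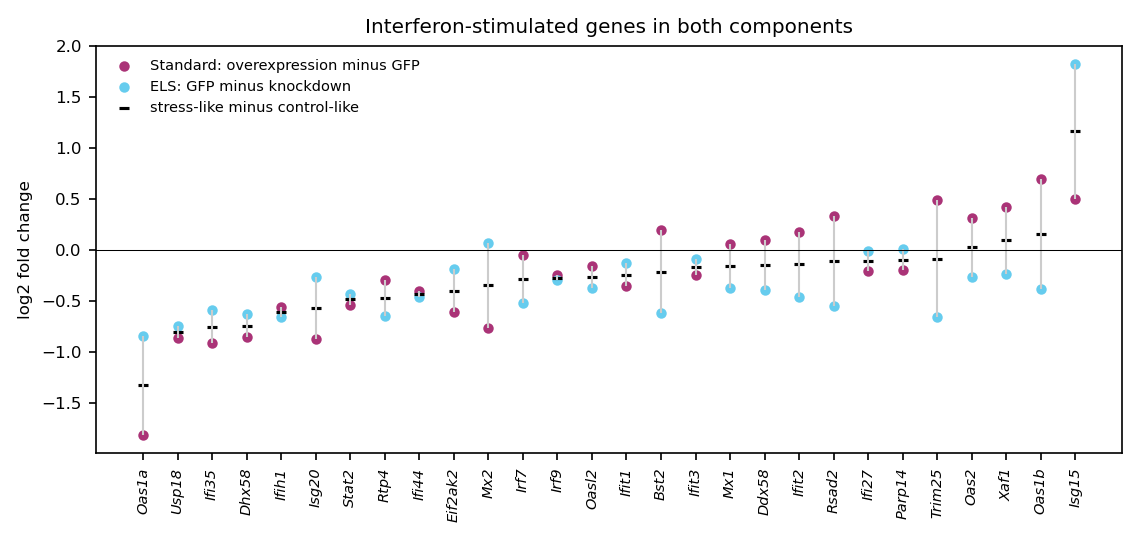
Log2 fold change (vertical) of 28 of the 29 interferon-stimulated genes in the Standard component (purple), the ELS component (light blue) and the stress-like contrast (black dash), ordered by the last. In 16 of the genes shown both components lie below 0, and in 1, Isg15, both lie above.

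Microglia, the brain's resident macrophages, also express interferon-stimulated genes, and most of their markers had the same sign. Of 10 tested markers, 9 had a log2 below 0, with a median of -0.34, and none had an unadjusted p under 0.05. Their summed level ran from 630 to 1996 CPM on the stress-like side (median 1074) and from 452.1 to 3206 CPM on the control-like side (median 985.2), so the medians of the sums stood the other way round. P2ry12 and Itgam, both defining markers, were listed at 0 counts in all 32 libraries. Without the 4 dominating libraries 4 of 10 markers were below 0 and the median was 0.07, while the interferon list had 28 of 29 below 0. With 1 library left out, 8 to 9 of 10 markers were below 0. The part of microglia in the interferon values was not tested. Blood cell markers had 2 of 4 tested members below 0 and a median of -0.01.

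Marker lists of the tissue's own neurons had medians a little below 0, with members of both signs. Among shared medium spiny neuron markers 12 of 15 were below 0 (median -0.18), among D2-type markers 6 of 8 (median -0.28), among D1-type markers 5 of 9 (median -0.05), and among dopamine and cAMP signalling genes 16 of 21 (median -0.20). In the ELS component the D2-type median was 0.08 and in the Standard component -0.63, and the difference between them was not tested for the list. Sp9, a transcription factor of D2-type neurons, had the smallest p of its list and lay above 0, at 0.53 (SE of 0.21, p = 0.01568, adjusted p = 0.4885), with 0.31 in Standard and 0.75 in ELS. Gucy1a1, of the same list, lay below 0 at a similar p, at -0.52 (SE of 0.21, p = 0.01732, adjusted p = 0.4929). Its components were -0.82 in Standard and -0.22 in ELS. Penk, the enkephalin precursor of D2-type neurons, had medians of 194.5 CPM in Standard GFP, 59.1 CPM in ELS Dot1l knockdown, 53.4 CPM in ELS GFP and 62.1 CPM in Standard Dot1l overexpression. The Standard GFP group alone stood high, its range of 26.2 to 466.8 CPM overlapped the other groups, and the log2 difference was -0.60 (SE of 0.38, adjusted p = 0.6712), with -1.14 in Standard and -0.06 in ELS. Without Standard Dot1l overexpression replicate 8 the log2 difference was -0.95, and without ELS Dot1l knockdown replicate 6 it was -0.41.

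Drd2, the D2 dopamine receptor, had medians of 87.1 CPM in Standard GFP, 71.9 CPM in ELS Dot1l knockdown, 58.9 CPM in ELS GFP and 54.3 CPM in Standard Dot1l overexpression. Its fitted log2 difference was 0.10 (SE of 0.41, adjusted p = 0.9709), above 0 although the medians of both stress-like groups were the lower ones. ELS GFP replicate 2 reached 629.6 CPM. Without that library it was -0.48. Drd1 had -0.77 (SE of 0.49, adjusted p = 0.6761), Tac1, the substance P precursor of D1-type neurons, -0.60 (SE 0.45), Adora2a, an adenosine receptor, -0.35 (SE 0.43), and Pde10a, the striatal phosphodiesterase, -0.20 (SE 0.20). Single libraries moved these: Drd1 ran from -1.22 without Standard Dot1l overexpression replicate 8 to -0.14 without ELS Dot1l knockdown replicate 6. Without the same overexpression library Tac1 was -0.85, Adora2a -0.74 and Pde10a -0.33. At the other end, Tac1 was -0.26 and Pde10a -0.10 without Standard GFP replicate 8, and Adora2a was -0.07 without Standard GFP replicate 5. Pde4b, a phosphodiesterase that degrades cAMP, had -0.34 (SE of 0.14, adjusted p = 0.4972), with -0.54 in Standard and -0.13 in ELS, and 3 of 16 stress-like libraries above the control-like median. Foxp2, a transcription factor of medium spiny neurons, had -0.67 (SE of 0.29, adjusted p = 0.5076), with -0.69 and -0.65, and -0.32 without ELS Dot1l knockdown replicate 6.

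Activity and stress genes gave no called change. Of 20 immediate early genes, 16 were below 0 (median -0.16). Fosb had -0.95 (SE of 0.41, adjusted p = 0.5086) and -0.32 without the 4 dominating libraries, while Fos had -0.36 (SE of 0.33, adjusted p = 0.8012), and -0.07 without ELS Dot1l knockdown replicate 8, and Bdnf 0.00 (SE of 0.27, adjusted p = 0.9998). Among glucocorticoid receptors and induced genes 7 of 16 were below 0 (median 0.02). Fkbp5, the chaperone that the glucocorticoid receptor induces, had medians of 16.3 CPM in Standard GFP, 14.4 CPM in ELS Dot1l knockdown, 15.3 CPM in ELS GFP and 17.2 CPM in Standard Dot1l overexpression. The log2 difference between the sides was 0.51 (SE of 0.29, adjusted p = 0.6383), and 0.09 without Standard Dot1l overexpression replicate 4, where it reached 121.7 CPM.

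The 13 mitochondrially encoded mRNAs all had a log2 above 0, with values between 0.05 and 0.32 (median 0.13) and a summed level of 9041 to 22110 CPM on the stress-like side and 7992 to 15570 CPM on the control-like side. In the ELS component 5 of 13 were below 0 and the median was 0.02, and without the 4 dominating libraries 6 of 13 were below 0. Among cytosolic ribosomal proteins 46 of 73 were above 0 (median 0.07), with 47 of 73 below 0 in the ELS component. Nuclear-encoded respiratory chain genes ran from -2.59 (Ndufab1) to 1.43 (Ndufb4) with a median of 0.08, and both ends were single-library genes. Ndufb4 drew 50.1% of its side from Standard Dot1l overexpression replicate 1. Myelin and oligodendrocyte markers had 11 of 14 below 0 (median -0.23), all 14 of them in the Standard component and 8 in the ELS component. Synaptic, channel and chromatin lists had medians between -0.11 and 0.03.

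**Figure D5:**
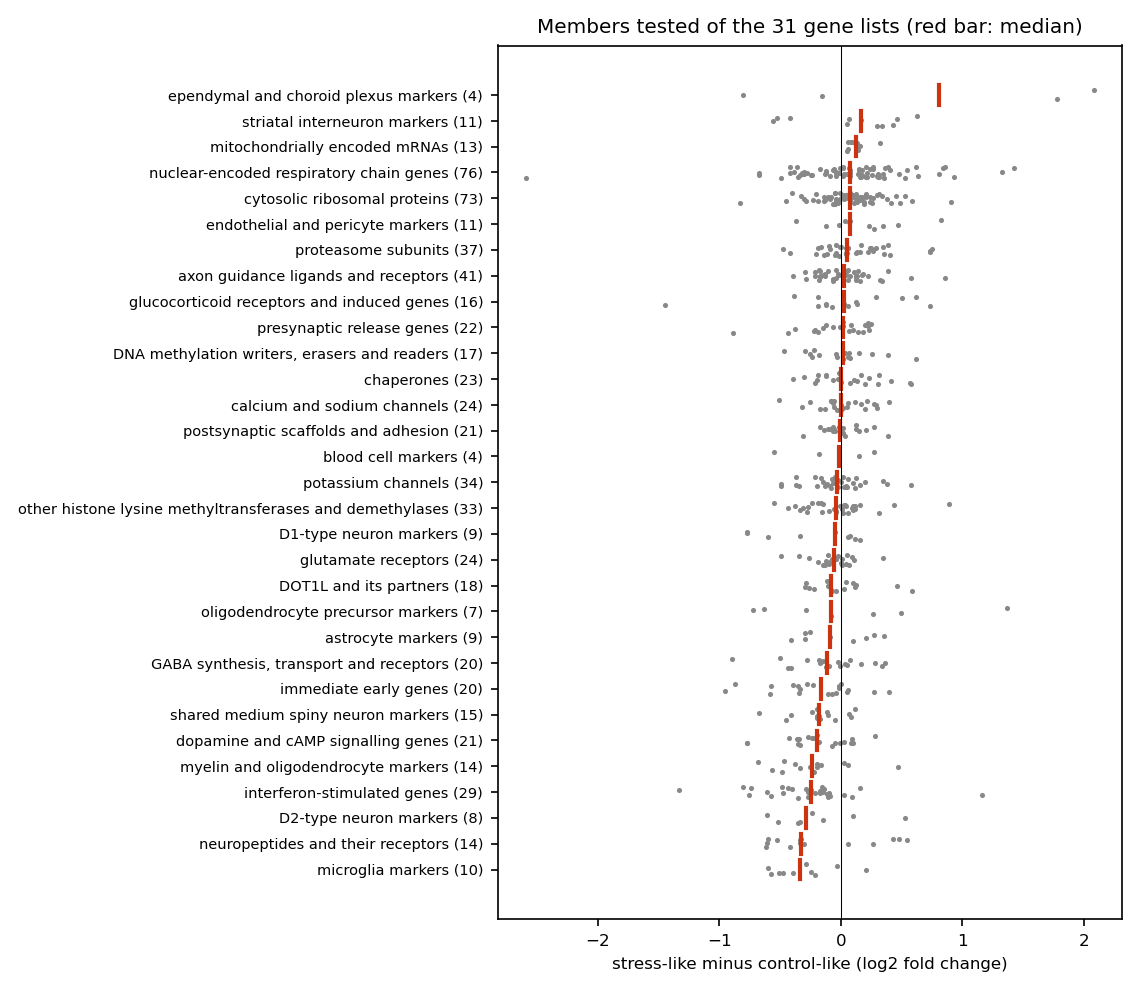
Log2 fold change, stress-like minus control-like (horizontal), of every tested member of the 31 gene lists (rows, number of members in brackets), with the list median as a red bar. Medians run from -0.34 for microglia markers to 0.81 for the 4 ependymal and choroid plexus markers, and most lists straddle 0.

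The H3K79me2 peaks that the authors' lists join to genes divided the leading genes. The lists hold 1 set of peaks per rearing group, made without regard to the RNA groups: 58.6% of the genes tested were joined to a Standard peak and 54.3% to an ELS peak. Of the 13 leading higher genes, 2 were joined to a peak in either list, Prkar2a (15 Standard and 18 ELS peaks) and Socs2 (3 and 1). Of the 13 leading lower genes, 11 were joined to a Standard peak and 10 to an ELS peak. Pan3 had 60 Standard and 68 ELS peaks, Pex14 44 and 33, and Akap9 23 and 18, while Kif24 and A330102I10Rik had 0. At an unadjusted p under 0.05, 40.6% of the higher and 62.5% of the lower genes were joined to a Standard peak. The higher genes also had the lower counts (median 28.2 against 66), and the part of expression level in this difference was not tested. None of the 29 interferon-stimulated genes (0) was joined to a peak in either list. Dot1l itself was joined to 18 peaks in each.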

How the data were processed

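RNA of 32 libraries was analysed. The authors deposited raw counts per Ensembl gene, not normalized. The submitters' processing notes list HISAT2, featureCounts, FastQC, DESeq2 and the mm10 build without roles. Use of strand in counting is not stated there, so overlapping and antisense genes, and near-identical paralogs, cannot be told apart. The authors also deposited an H3K79me2 peak list per rearing group with a fold enrichment and a q-value per peak, per the file headers. No source used here names the peak caller. A gene counts as joined where a peak list carries its Ensembl gene ID for a peak classed as gene body or promoter. Peaks of other classes were not counted.

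The count model was that of edgeR 4.0.16 in R 4.3.3, after filterByExpr with a minimum count of 10 and TMM scaling. The filter kept 14016 of 52636 gene IDs. The fit had 4 group means, 28 residual degrees of freedom and the robust quasi-likelihood test, 2-sided, with Benjamini-Hochberg adjustment at 0.05. The SE is the absolute log2 difference over the square root of F. Correlations used log2 CPM with a prior count of 2. The tests were tested on simulated data. The alternatives included DESeq2 1.42.0, limma 3.58.1 and sva 3.50.0.

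The gene lists and the genes in them were chosen with earlier results of these data known. Named genes are, per direction, the 5 smallest p; the 8 smallest p among genes with no library over 25% of its side; up to 5 at an unadjusted p under 0.05 with the same direction in both components; fixed striatal, stress and Dot1l genes; and up to 3 members per list and direction at an unadjusted p under 0.05. Stat2, Dhx58, Ifit1, Irf7, Irf9, Oas1b, Oas2, Xaf1 and Foxj1 fall outside this rule and were chosen after their values were seen. Promoters came from RefSeq (GRCm38.p6). Samples of the ChIP assay other than through the peak lists were not used here. Values of 2 genes are not reported here by name; they remain in the counts over lists.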

Additional observations from a re-analysis of the deposited data

Results flagged for a closer look

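Within groups of 8 libraries, the highest or lowest value stood apart by Dixon's criterion in 12 cases, of which 11 are levels of named genes in log2 CPM. Chance gives about 1 in 20 groups, and 88 gene and group pairs were looked at.

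In Standard GFP the libraries that stood apart were at 2.89 for 9530026P05Rik (low), 6.29 for A330102I10Rik (high), 3.45 for Dot1l (low), 8.48 for Ndufab1 (high) and 2.17 for Tmc5 (high). In ELS GFP they were at 6.66 for Prkar2a and 6.12 for Socs2, both high. In Standard Dot1l overexpression they were at 6.03 for Prkar2a and 6.64 for Socs2, both high. In ELS Dot1l knockdown they were at 8.89 for Got2 and 7.67 for Ndufab1, both high. The share of counts in the 10 most abundant features was 38.2% in 1 library of ELS Dot1l knockdown, below the others of its group.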

How the results depend on the processing

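No gene passed the adjusted threshold in the stress-like contrast under any of the 44 alternatives run (0 genes each; 32 of them leave out 1 library), and the smallest adjusted p ranged from 0.0964 to 0.919. Counts at an unadjusted p under 0.05 moved by over 1.5 times under several. Stress-like, 1188 genes as reported: 4341 with no filter on low counts, 671 with limma voom and quality weights, 764 with a replicate block by title number, 727 with surrogate variables and 737 without the 4 dominating libraries. Difference between the rearings, 1170 as reported: 3214 with no filter, 730 with the replicate block, 630 with surrogate variables and 754 without the 4. Rearing, 1333 as reported: 2892 with no filter, 804 with voom, 612 with the replicate block, 632 with the title letter as a factor and 748 without the 4. In the rearing contrast DESeq2 called 1 gene, Marveld1, and surrogate variables 1. The replicate block is the number in the library title, whose meaning the labels do not give. Title numbers repeat within groups, so the block pairs no libraries. All of the 4 dominating libraries carry the number 2. Genes at that level in both components with the same direction, 23 as reported, were 379 with no filter, 60 with DESeq2, 40 with the title letter and 36 without the libraries under 1 M (mega) counts. With opposite directions, 20 as reported, they were 191 with no filter, 37 with DESeq2, 8 with the replicate block, 11 with surrogate variables and 9 without the 4. Leaving out 1 library at a time gave 15 to 36 and 10 to 28. The cause of these shifts was not tested.

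Of 73 named genes, 63 kept their direction under the 12 other alternatives. Dot1l turned to -0.09 with voom, -0.05 without shallow libraries and -0.08 without the 4, and ran from -0.06 to 0.11 with 1 library left out. Bdnf was 0.01 with RLE factors, DESeq2 and 2 sides, 0.31 with voom, 0.05 without shallow libraries and 0.00 without the 10 most abundant features, and from -0.11 to 0.14 with 1 library left out. Drd2 was -0.81 with voom, -0.16 with the replicate block, -0.17 with the title letter, -0.61 with surrogate variables and -0.54 without the 4 (-0.48 to 0.28 with 1 left out). With surrogate variables Cox7c was -0.26, Dnaja1 -0.02, Kdm2b 0.03, Kdm4c -0.03 and Rpl32 -0.03. With DESeq2 Kdm4c was -0.02 and Ndufab1 0.14. Without the 4, Cox7c was -0.10, Isg15 -0.14, Kdm2b 0.14, Kdm4c -0.03 and Rpl32 -0.04. Kdm2b ran from -0.16 to 0.17 with 1 library left out. No filter moved the median of all genes to 0.17. Interferon-stimulated genes below 0 numbered 24 to 28 of 29 over the 12 alternatives and 23 to 27 with 1 library left out. Microglia markers below 0 numbered 2 to 10 of 10 over the 12.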
